A study of Mus musculus with 45 samples.

Results

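Hepatic stellate cells (HSCs) were followed through 2 kinds of liver injury in the mouse and through culture on plastic. Described here are 250 rows, of 23999 in the count tables, that rose in both injuries and ended culture near their starting level. The members were chosen on measured values. Counts were divided by the library total and multiplied by 1000000 (CPM), and the level of a row in a group was taken as log2(mean CPM + 1), which compresses differences at low counts. Of all rows, 13336 reached a level of 3 in at least 1 group, and 4376 of these differed by less than 0.5 between 12 days and 2 hours in culture. From these, the 250 rows were taken with the highest value of the smaller of 2 rises, that from chow to 24 weeks of Western diet (WD) and that from vehicle to 8 weeks of CCl4.

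The samples were 45 libraries from male C57BL6/J mice in 13 groups. In WD, 4 mice each were fed chow, or Western diet with fructose in the drinking water for 12, 16 or 24 weeks, with the start set so that all mice had the same age at the end. In CCl4, 4 mice received corn oil for 8 weeks and 3, 4 and 3 mice received CCl4 in corn oil by gavage for 1, 4 and 8 weeks. In the culture series (IVT, in vitro transdifferentiation), sorted HSCs of healthy mice were kept in suspension for 2 hours or cultured for 1, 4, 8 or 12 days, with 3 libraries each. All cells had been selected alive by their retinoid autofluorescence, so that cells without stored retinoid were not collected. The methods speak of technical triplicates for the cultures and of biological replicates for the RNA. P-values in IVT may therefore measure the spread between wells of the same cells.

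HSCs store vitamin A in the quiescent liver. After injury they lose this store and become contractile myofibroblasts that lay down fibrillar collagen, and the same change starts when freshly isolated cells attach to a plastic dish. In the liver they receive signals from hepatocytes, macrophages and sinusoidal endothelial cells, which are absent or sparse in the dish. The list addresses which rows rose in injured liver and ended near where they began in the dish.

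No row can be tied to a gene, because identifiers and counts were not in register. The row listed as Actb, a cytoskeletal gene that every cell uses, held between 0 and 2 counts in the 15 IVT libraries, and the row listed as B2m, which every nucleated cell uses, held between 0 and 1 counts in the WD and CCl4 libraries. Rows were therefore joined across the tables by their line and are named by it, with line 1 as the first row of values. The lowest rank correlation between the levels of any 2 groups was 0.857. No marker of HSCs or of another liver cell type could be read, and no function or sequence is given for a member. In sorted bulk samples, more cells of a type and more RNA per cell cannot be told apart. For some transcription factors induced in vivo and absent in vitro, the paper holds traces of macrophage RNA more likely than induction in HSCs. It also speculates that RNA of disrupted hepatocytes entered the WD preparations. The part of other cells in the rises of the members was not tested. Total counts ranged from 2318311 to 7576527 per library with a median of 5402217, and 3 counts corresponded to between 0.396 and 1.29 CPM. This limit covers counting error only. Levels were not divided by transcript length, since no length could be assigned, and are therefore compared between groups and not between rows.

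The smaller of both rises ran from 7.21 at line 15974 to 2.34 at line 4573. The 5 last members, lines 11589, 16170, 8993, 14627 and 4573, had values of 2.37, 2.35, 2.35, 2.35 and 2.34. The 5 rows next outside, lines 5135, 11525, 11364, 14567 and 7929, had 2.34, 2.32, 2.32, 2.31 and 2.27. The end of the list is therefore a limit in a continuous series of values. Above it lay 635 rows in all, of which 262 rose by 0.5 or more in culture, 123 fell by 0.5 or more and 250 did neither. Above the value of the 50th member lay 99 rows, of which 32 rose, 17 fell and 50 did neither. These counts are set by the rule and were not tested.

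The members had a median rise of 4.59 at 24 weeks of WD (range 2.34 to 7.27) and of 4.51 at 8 weeks of CCl4 (range 2.35 to 8.05). The WD rise was the higher one in 116 members. In 200 of the 250 members the rises differed by less than 1, while 28 rose by 1 or more further in WD and 22 by 1 or more further in CCl4. The heat map of all members shows these values by library.

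**Figure D1:**
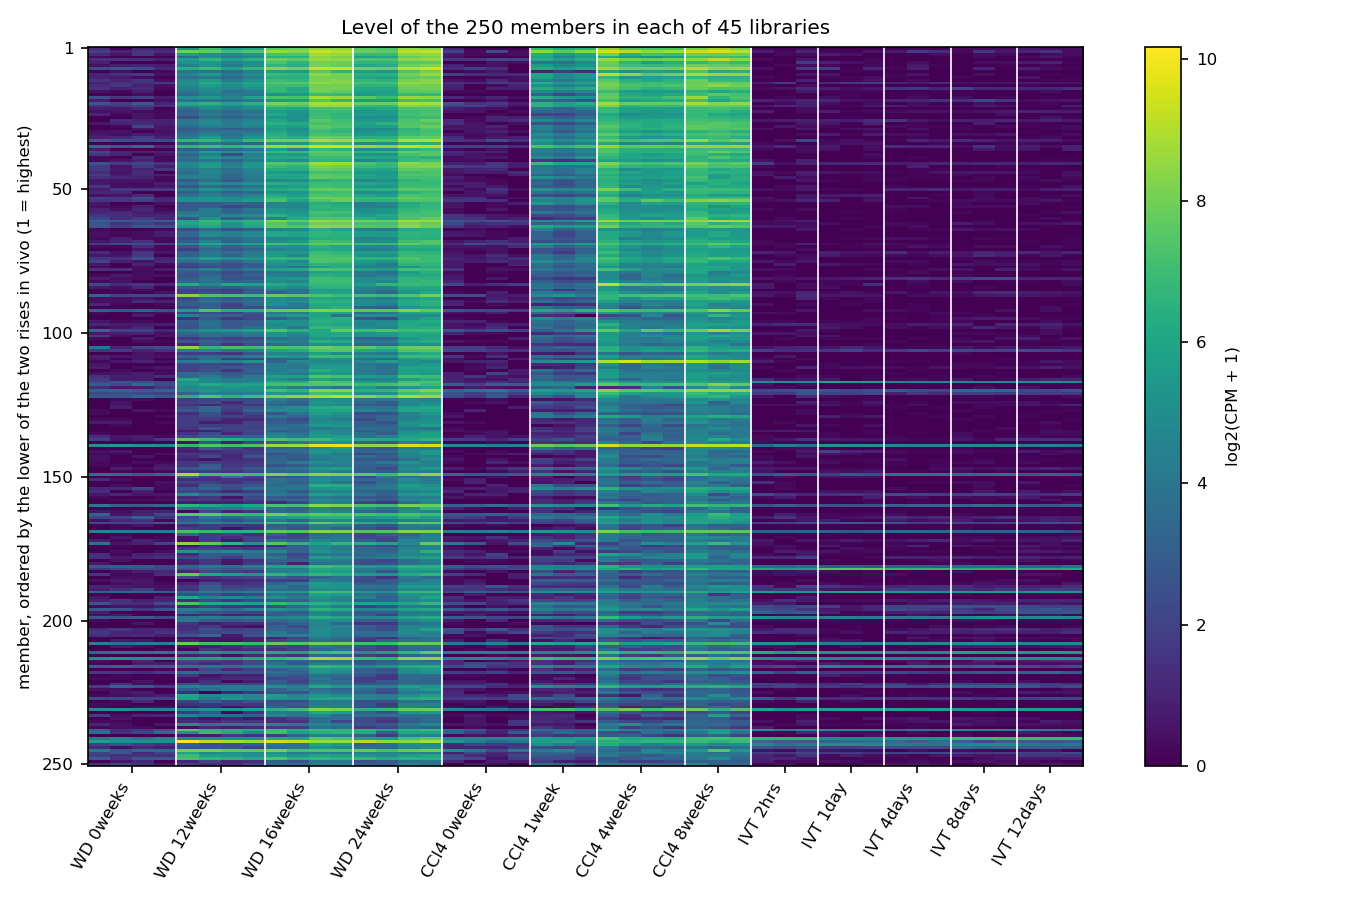
Level of the 250 members (rows, ordered by the smaller of the rises at WD 24weeks and CCl4 8weeks) in each of 45 libraries (columns, by group, replicates A to D or A to C from left to right), as log2(CPM + 1). Most members are dark in chow, vehicle and all IVT libraries and bright from 16 weeks of WD and 4 weeks of CCl4, and the right pair of libraries is brighter than the left pair at both 16 and 24 weeks of WD.

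Most members had almost no reads in culture. In 196 members (78.4%) the level was under 1 in all 5 IVT groups, which is below a mean of 1 CPM, while 32 reached a level between 1 and 3 and 22 (8.8%) reached 3 or more. Of the 4376 rows with a difference under 0.5 between 12 days and 2 hours, 12.1% stayed under 1 in all IVT groups and 82.3% reached 3 or more. These rows were not alike in level, with a median in chow of 5.41 against 0.59 for the members. A large rise on this scale favours rows that start low, and rows near 0 CPM in culture meet the limit of 0.5 easily. The difference in these percentages is therefore in part set by the rule and was not tested. No single IVT library held more than 3 counts for 129 members, and 11 members had no count in any of the 15. For these rows a change of a few counts could not have been detected at this depth, so that the near-zero difference over culture is a statement about rows close to the detection limit.

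The same rows were also low in the control livers. At most 3 counts were found in every library for 91 members in chow, 112 in vehicle and 172 after 2 hours in suspension. Of the 250 members, 15 had a level of 3 or more in chow, 11 in vehicle and 15 after 2 hours. The median level was 0.59 in chow, 0.52 in vehicle and 0.25 after 2 hours, and it stayed between 0.13 and 0.19 from 1 to 12 days. The members together held between 0.0445% and 0.064% of the counts of a chow library and between 0.0531% and 0.0731% of those of an IVT library, against 1.12% to 2.86% at 24 weeks of WD and 1.82% to 2.18% at 8 weeks of CCl4.

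Line 15974 had the highest place in the list and was practically silent outside the injured livers. It had 1.30, 0, 1.02 and 0.729 CPM in the chow libraries and 0.872, 0, 0 and 0 CPM in the vehicle libraries. In WD it had 32.1, 129, 52.4 and 66.3 CPM at 12 weeks, 197, 228, 351 and 343 CPM at 16 weeks and 190, 165, 387 and 296 CPM at 24 weeks. All libraries from 16 weeks on lay above all libraries at 12 weeks. In CCl4 it had 106, 71.8 and 92.6 CPM at 1 week, 318, 169.9, 157 and 162 CPM at 4 weeks and 245, 393 and 272 CPM at 8 weeks. It reached at most 4 counts in any IVT library, which was at 12 days, and had none in the 3 libraries of day 1.

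Lines 13794 and 16166 followed in the list. Line 13794 already had 185 ± 45.9 CPM (SD, n = 4) at 12 weeks of WD and 282 ± 84.1 CPM (SD, n = 3) at 1 week of CCl4, from 1.85 ± 0.721 CPM in chow and 2.02 ± 2.03 CPM in vehicle (SD, n = 4 each). It had the most reads in culture in a single library among the first 10 members, up to 18 counts and 2.60 CPM in 1 library of day 4, while the other 2 libraries of that day had 0.68 and 1.61 CPM. Line 16166 had 37.6 ± 8.60 CPM at 12 weeks, 281 ± 147 CPM at 16 weeks and 231 ± 135 CPM at 24 weeks of WD (SD, n = 4 each) and at most 5 counts in any IVT library.

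The other 7 of the first 10 members were lines 17137, 16490, 17761, 5883, 11827, 5608 and 6391, with WD rises between 6.47 and 7.27 and CCl4 rises between 6.51 and 7.48. Of these, line 11827 reached 17 counts in an IVT library and the others at most 9. Line 5608 differed from the rest in its course under CCl4. It had 0.924, 2.43 and 1.497 CPM at 1 week, close to the 0, 0.239, 0.633 and 0 CPM of the vehicle libraries, and then 69.2, 35.6, 57.6 and 50.7 CPM at 4 weeks and 166, 72.9 and 92.4 CPM at 8 weeks. By 1 week it had made a share of 0.169 of its 8-week rise, whereas the other 9 of the first 10 members had made between 0.561 and 0.85 of theirs.

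**Figure D2:**
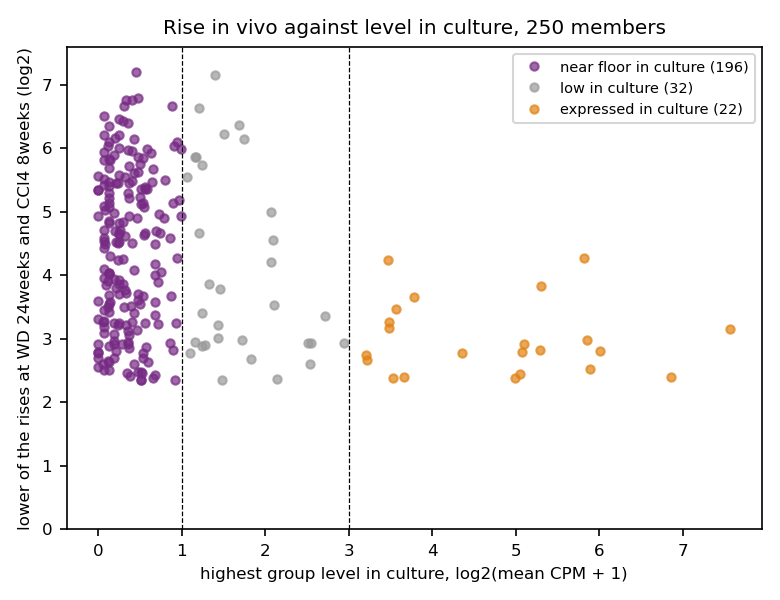
Smaller of the rises at WD 24weeks and CCl4 8weeks (vertical axis, log2 scale) against the highest group level in culture (horizontal axis, log2(mean CPM + 1)) for the 250 members, with broken lines at 1 and 3. The 196 members near the floor span the whole range of rises, while the 22 members at 3 or more in culture have rises between 2.38 and 4.27.

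Timing in WD was tested between 16 and 12 weeks, from which none of the 3 differences that ranked or limited the members had been taken. The level of 3 in at least 1 group had been looked for in all 13 groups, however, and 4 members reached it only at 16 weeks of WD. At 16 weeks, 204 of the 250 members were higher than at 12 weeks and none was lower. Of the 246 members that reached the level in a group of the 3 differences, 202 were called. A row was called at a false discovery rate (FDR) of at most 0.05 in edgeR's quasi-likelihood test. In addition, the log2 of its mean CPM over the libraries of both groups had to be above 2. Of the 12263 rows above that level, 13.2% were called, 9.45% as higher and 3.78% as lower. All 250 members passed the expression filter and 244 were above the level. Of the 40 that were above it and not called, 23 had a log2 fold change (log2FC) above 0 and 17 below 0. DESeq2 called 210 members, none of them lower, and in edgeR 218 members had an unadjusted p under 0.05. The median log2FC of the 244 members was 2.53, against −0.10 for all rows above the level. In 203 members every 16-week library was above every 12-week library and in 0 members below, which held for 10.3% and 4.67% of the 13336 rows with a level of 3 in any group. The members were selected as high at 24 weeks, so the earlier of the compared weeks could lie lower by that choice.

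The lowest p-values belonged to lines 14364, 13569 and 22480. Line 13569 had 2.48, 3.30, 4.41 and 3.66 CPM at 12 weeks and 19.5, 11.8, 30.1 and 27.0 CPM at 16 weeks, without overlap. Its log2FC was 2.61 ± 0.33 (SE, FDR 0.000933, edgeR), and it was at 1 count or none in each IVT library. Line 14364, one of the members with a level above 3 in culture, had 9.59, 15.7, 11.7 and 16.99 CPM at 12 weeks and 59.7, 64.8, 130.0 and 104 CPM at 16 weeks, with a log2FC of 2.69 ± 0.33 (SE, FDR 0.000932, edgeR). Line 22480 had 31.1 ± 10.4 CPM at 12 weeks and 289 ± 143 CPM at 16 weeks (SD, n = 4 each), with a log2FC of 3.15 ± 0.42 (SE, FDR 0.00121, edgeR). The call was made in 162 of the 196 members near the floor in culture, in 26 of the 32 between 1 and 3 and in 16 of the 22 at 3 or more.

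The median level of the members was not higher at 24 than at 16 weeks of WD. Their median level was 0.59 in chow, 3.46 at 12 weeks, 5.64 at 16 weeks and 5.55 at 24 weeks, and 169 members had their highest level at 16 weeks, 69 at 24 weeks and 12 at 12 weeks. The median difference between 24 and 16 weeks was −0.11 (range −0.81 to 1.52). It was not tested, because the 24-week libraries had been used to choose the members.

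The libraries of 16 and 24 weeks differed among themselves by more than those of any other group. The mean level over members was 4.94, 4.76, 6.19 and 6.002 in replicates A to D at 16 weeks and 4.68, 4.56, 5.97 and 6.13 at 24 weeks. At both times replicates A and B were lower than C and D, and no such order was seen at 12 weeks, with 3.33, 3.72, 3.24 and 3.62. The highest value of a member at 16 weeks was in replicate C for 178 members and in D for 55, and at 24 weeks in C for 92 and in D for 149. Over all 13336 rows with a level of 3 in any group, the share with the highest value in C or D was spread differently, with 39.9% in C and 10.8% in D at 16 weeks and 18.2% in C and 38.6% in D at 24 weeks. The median SD between libraries was 0.823 for members at 16 weeks and 0.904 at 24 weeks on the log2(CPM + 1) scale, against 0.268 and 0.286 for other rows within the quartiles of the members' levels. What the letters share was not given in the labels, and the part of cell composition in this spread was not tested. Without replicate C or without replicate D at 16 weeks, 174 members were called in either case.

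**Figure D3:**
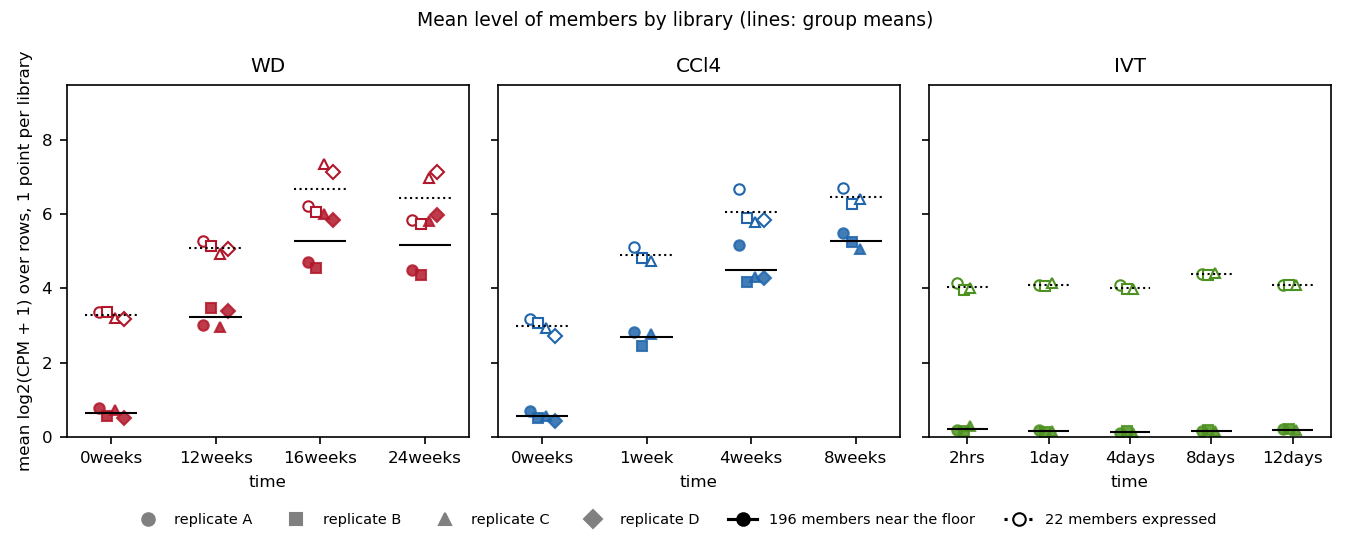
Mean log2(CPM + 1) in each library (1 point, its shape giving the replicate letter) over the 196 members near the floor in culture (filled) and the 22 members at 3 or more in culture (open), by time in WD, CCl4 and IVT, with lines at the group means. Both sets rise in WD and CCl4, in IVT the filled points stay near 0 and the open points lie between 3.94 and 4.15 except on day 8, with 4.36 to 4.42, and replicates C and D lie above A and B at 16 and 24 weeks of WD.

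Under CCl4 the median level of the members was higher at each later time. It was 0.52 in vehicle, 3.03 at 1 week, 4.75 at 4 weeks and 5.45 at 8 weeks. Of the members, 237 had their highest level at 8 weeks and 13 at 4 weeks. The step from 4 to 8 weeks was not tested, because the 8-week libraries had been used to choose the members. Of the 250 members, 162 were highest at 16 weeks of WD and at 8 weeks of CCl4. Between 4 and 1 weeks, which had entered the choice only through the level in any group, 175 members were higher and 2 were lower in edgeR's quasi-likelihood test under the same limits. Of the 12081 rows above the level, 46% were called, 22.9% as higher and 23.1% as lower. Of the members, 36 were at or below the level, and of the 37 above it and not called, 29 had a log2FC above 0. DESeq2 called 179 as higher and 2 as lower. The median log2FC of the 214 members above the level was 1.90, against 0.01 for all rows above it. In 200 members every 4-week library lay above every 1-week library and in 1 member below, against 30.9% and 19.4% of the 13336 rows. As the members were selected as high at 8 weeks, the earlier of the compared weeks could lie lower by that choice here too.

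The lowest p-values in CCl4 belonged to lines 12162, 23087 and 15918. Line 12162 had 1.98, 1.67 and 3.00 CPM at 1 week, then 63.4, 47.5, 38.3 and 39.0 CPM at 4 weeks, with a log2FC of 4.30 ± 0.28 (SE, FDR 4.29e-07, edgeR). Line 23087 went from 26.9, 41.0 and 44.1 CPM at 1 week to 479.7, 707, 411 and 474 CPM at 4 weeks, with a log2FC of 3.66 ± 0.27 (SE, FDR 9.26e-07, edgeR). The latter row had the largest excess of the CCl4 rise over the WD rise in the list, 8.05 against 4.52. In WD it had 23.7 ± 8.05 CPM at 12 weeks and 22.5 ± 9.74 CPM at 16 weeks (SD, n = 4 each) and was not called between them (log2FC −0.12 ± 0.35, SE, FDR 0.842, edgeR). Line 15918 had a log2FC of 4.09 ± 0.32 in CCl4 (SE, FDR 1.31e-06, edgeR) and of 2.26 ± 0.32 between 16 and 12 weeks of WD (SE, FDR 0.00139, edgeR).

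The 2 members called lower at 4 weeks of CCl4 were lines 287 and 1661. Line 287 had 30.1, 17.3 and 23.3 CPM at 1 week, 12.4, 12.97, 8.49 and 9.01 CPM at 4 weeks and 35.4, 21.6 and 31.4 CPM at 8 weeks, from 1 count or none in each vehicle library. Its log2FC between 4 and 1 weeks was −1.27 ± 0.26 (SE, FDR 0.0012, edgeR), and no 4-week library reached the lowest 1-week library. In WD it was higher at 16 than at 12 weeks, with a log2FC of 3.76 ± 0.99 (SE, FDR 0.027, edgeR). Line 1661 had 13.9, 6.98 and 9.63 CPM at 1 week and 9.37, 6.37, 3.52 and 2.70 CPM at 4 weeks, which overlapped, with a log2FC of −1.04 ± 0.38 (SE, FDR 0.0418, edgeR). The call of line 1661 was lost with DESeq2 size factors (log2FC −0.99), with library totals (−0.91), with only the compared groups (−1.04), with the replicate letter in the fit (−0.83) and without replicate A or C at 1 week or replicate B, C or D at 4 weeks (−1.14 to −0.79).

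One library stood apart at 4 weeks of CCl4. The mean level over members was 5.38 in replicate A and 4.39, 4.52 and 4.50 in replicates B to D, and replicate A held the highest value for 213 of the 250 members, against 36.3% of the 13336 rows. Without replicate A, 154 members were called higher and 2 lower.

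Across both tests, 157 members were called higher at 16 weeks of WD and at 4 weeks of CCl4, 47 only in WD, 18 only in CCl4 and 28 in neither. Because their mean was at or below the level for a call, 36 members could not be called in CCl4 and 6 in WD. With no limit on the mean level, 202 were called higher in CCl4 and 209 in WD. Whether the change differed between both models was not tested. Beside these members, the 250 rows with the highest smallest rise over WD, CCl4 and IVT gave 123 called higher in WD and 156 in CCl4, and the 250 rows with the highest smallest value of both rises in vivo and the fall in culture gave 137 and 130. These lists were ranked on other values, so that their rises in vivo were smaller, with median WD rises of 3.31 and 2.82.

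**Figure D4:**
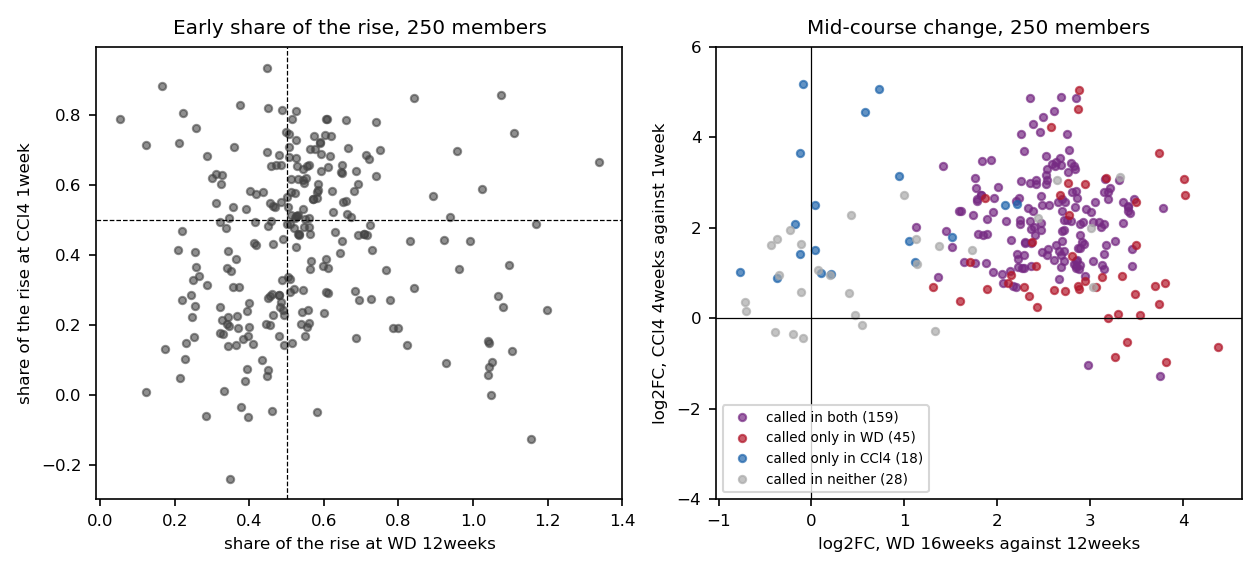
Left, share of the final rise reached at CCl4 1week (vertical axis) against the share reached at WD 12weeks (horizontal axis) for the 250 members, with broken lines at 0.5. Right, log2FC at CCl4 4weeks against 1week (vertical axis) and at WD 16weeks against 12weeks (horizontal axis), with colours for members called in both tests (159, of which 2 moved in opposite directions), in 1 or in neither, and most members lie above 0 on both axes.

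A member that rose early in one model did not always do so in the other. The share of the final rise was taken for each member as its rise at an earlier time over its rise at the last time. Both rises are on the log2(mean CPM + 1) scale, so a share of 0.5 is less than 0.5 of the increase in CPM. The members together held on average 0.667% of the counts at 12 weeks and 1.975% at 24 weeks of WD. In CCl4 they held 0.406% at 1 week and 1.99% at 8 weeks. At 12 weeks of WD the median share was 0.521 (0.454 to 0.581 over the 4 libraries) and at 16 weeks 1.02. At 1 week of CCl4 it was 0.459 (0.388 to 0.489 over the 3 libraries) and at 4 weeks 0.872. A share of 0.5 or more was reached by 141 members at 12 weeks of WD and by 107 at 1 week of CCl4. Both held for 73 members, the first alone for 68, the second alone for 34 and neither for 75. Over the 250 members, Spearman's rho between both shares was 0.15 and Pearson's r was 0.04, as a description. Members are not independent of each other, and the shares come from different mice. Their denominators contain the rises that chose the members.

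Some members had completed their WD rise by 12 weeks. The share was 1 or more in 17 members, and it was highest in lines 11589, 17122 and 1359, with 1.34, 1.20 and 1.17. Line 11589 had 58.2, 26.0, 31.9 and 29.6 CPM at 12 weeks and 33.0, 18.2, 20.6 and 17.7 CPM at 16 weeks, with overlap, and its log2FC of −0.77 ± 0.32 was not called (SE, FDR 0.126, edgeR). Line 17122 varied widely between libraries, with 328, 207, 99.3 and 33.5 CPM at 12 weeks and 14.1, 0.486, 0.766 and 3.10 CPM in chow. At the other end were lines 4573, 866 and 8053, with shares of 0.05, 0.12 and 0.12. Line 4573 had 2.48, 1.65, 1.36 and 3.33 CPM at 12 weeks, within the 0.547 to 3.57 CPM of chow, and 9.504, 10.1, 18.4 and 19.7 CPM at 16 weeks (log2FC 2.61 ± 0.49, SE, FDR 0.00328, edgeR).

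Under CCl4 the share at 1 week was highest in lines 287, 20637 and 8762, with 0.936, 0.884 and 0.857, and lowest in lines 21246, 4636 and 15001, with −0.24, −0.13 and −0.06. It was below 0 in 8 members. Line 4636 had 0.66, 0.607 and 0 CPM at 1 week, 18.5, 33.2, 10.6 and 14.9 CPM at 4 weeks and 9.27, 10.8 and 6.28 CPM at 8 weeks. Its log2FC between 4 and 1 weeks was 5.17 ± 0.60 (SE, FDR 1.95e-05, edgeR). In WD the same row had 18.8 ± 8.90 CPM at 12 weeks and 18.6 ± 3.78 CPM at 16 weeks (SD, n = 4 each) and was not called (log2FC −0.10 ± 0.46, SE, FDR 0.907, edgeR). Lines 8053 and 4573 differed in CCl4, since the share at 12 weeks of WD was low in both, whereas at 1 week of CCl4 it was 0.788 in line 4573, and line 8053 had 0.264, 1.22 and 0.214 CPM at 1 week, within the 0 to 1.48 CPM of vehicle.

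The 22 members at a level of 3 or more in culture had a clear signal there. The most reads in culture fell on lines 12713, 14222, 20637, 7517 and 15678. Line 20637 was the steadiest of these, with 63.3, 36.6 and 49.8 CPM after 2 hours, 55.4, 61.3 and 58.2 CPM on day 1, 57.6, 51.4 and 59.4 CPM on day 4, 46.4, 42.8 and 44.9 CPM on day 8 and 51.1, 48.3 and 44.8 CPM on day 12. It was called in neither of the tested steps. All of these values lay above the 30.4, 35.2, 24.8 and 21.9 CPM of chow and below the 91.2, 129.9, 312 and 266 CPM at 16 weeks of WD and the 134, 133 and 95.2 CPM at 1 week of CCl4. Line 7517 had group means between 40.3 and 56.7 CPM in culture, against 8.56 ± 1.73 CPM in chow and 84.8 ± 49.2 CPM at 16 weeks of WD (SD, n = 4 each). It was lower on day 4 than on day 1 (log2FC −0.48 ± 0.11, SE, FDR 0.00147, edgeR). Its 2-hour libraries, with 51.5, 37.6 and 41.6 CPM, lay above all chow libraries and overlapped those at 16 weeks of WD, of which the lowest had 40.7 CPM. For line 12713 the 12-day libraries, with 64.9 to 70.3 CPM, lay above the 16.7 to 60.6 CPM at 24 weeks of WD, and within the 60.8 to 102 CPM at 8 weeks of CCl4. Levels in culture and in vivo come from separate tables, and these comparisons were not tested. Per the methods, the cultured cells were lysed in another reagent than the cells sorted from livers, and the part of this in the level was not tested.

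Several of the members with a measurable level moved during culture. By the rule, the levels of members at 2 hours and 12 days were close, but they were not always equal. In culture, 207 of the 250 members, including all 196 near the floor, did not pass the expression filter and were not tested. Between day 1 and day 4, 20 of the remaining members were above the level for a call, and 5 of these were called higher and 9 lower in edgeR's quasi-likelihood test. Of the 11106 rows above the level, 68.6% were called, 33.7% as higher and 34.8% as lower. Between day 4 and day 8, 21 members were above the level, and 9 were called higher and 3 lower, against 33.9% of 11355 rows, with 18.1% higher and 15.8% lower. DESeq2 gave the same counts in both comparisons. Of the 20 and 21 members above the level, 70% and 57.1% were called. The share between day 1 and day 4 was thus near the 68.6% of all rows above the level. No test was made of either share against the other rows.

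The members with the most reads in culture, lines 14222 and 12713, went in opposite directions at first. Line 14222 had 89.3, 92.6 and 88.6 CPM after 2 hours, had 24.96, 24.4 and 23.5 CPM on day 1 and had 39.5, 39.6 and 37.2 CPM on day 4, 118, 114 and 112 CPM on day 8 and 112, 109 and 109.9 CPM on day 12. The later steps were tested, with a log2FC of 0.69 ± 0.07 between day 4 and day 1 (SE, FDR 1.8e-07, edgeR) and of 1.57 ± 0.06 between day 8 and day 4 (SE, FDR 7.61e-12, edgeR). Line 12713 had 62.1, 45.01 and 50.6 CPM after 2 hours, 178, 184 and 204 CPM on day 1, 105, 94.6 and 100.02 CPM on day 4, 78.7, 85.1 and 82.2 CPM on day 8 and 68.7, 64.9 and 70.3 CPM on day 12. It was lower on day 4 than on day 1 (log2FC −0.90 ± 0.09, SE, FDR 8.71e-08, edgeR) and lower on day 8 than on day 4 (log2FC −0.28 ± 0.09, SE, FDR 0.0229, edgeR). The second of these calls was lost without replicate A or C of day 4 or of day 8 (log2FC −0.28 to −0.25).

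**Figure D5:**
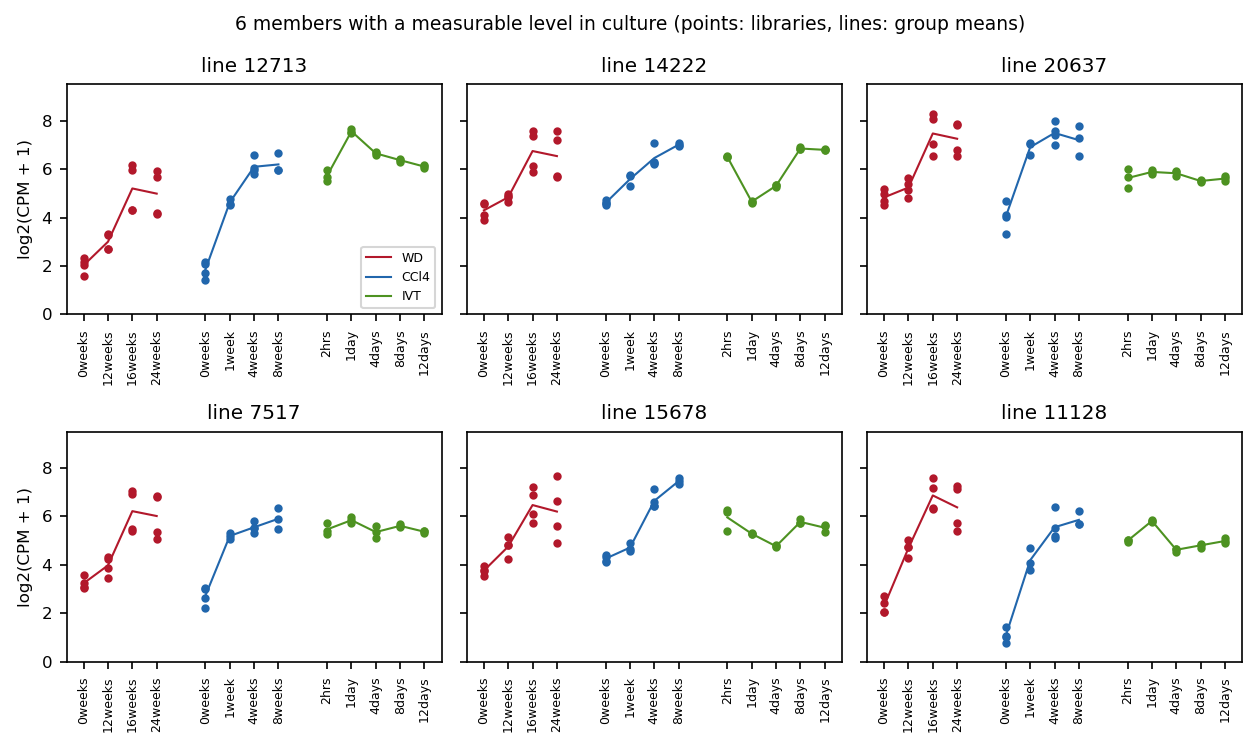
Values in each library (points, log2(CPM + 1)) and means of these values per group (lines) of 6 members with a measurable level in culture, in WD, CCl4 and IVT. All 6 rise in WD and CCl4, while in IVT lines 12713 and 11128 are highest on day 1, line 14222 is lowest on day 1 and line 15678 on day 4, and lines 20637 and 7517 vary least.

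Further members with a peak on day 1 were lines 11128, 20689 and 17036. Line 11128 had 32.0, 31.2 and 29.5 CPM after 2 hours, 57.4, 54.5 and 54.2 CPM on day 1 and 24.2, 22.4 and 24.3 CPM on day 4, with a log2FC of −1.21 ± 0.08 between day 4 and day 1 (SE, FDR 7.85e-10, edgeR). Line 20689 had a log2FC of −1.28 ± 0.19 for the same step (SE, FDR 1.37e-05, edgeR). Line 17036 had 3.20, 3.91 and 1.97 CPM after 2 hours, 21.9, 17.8 and 18.7 CPM on day 1 and 3.74, 3.28 and 4.37 CPM on day 12. Its log2FC was −0.41 ± 0.13 between day 4 and day 1 (SE, FDR 0.0107, edgeR) and −0.72 ± 0.14 between day 8 and day 4 (SE, FDR 0.000922, edgeR). Line 12056, the last of the 3 called lower on day 8, had −0.54 ± 0.18 (SE, FDR 0.0301, edgeR), a call lost without replicate A or C of day 4 or any replicate of day 8 (−0.58 to −0.49).

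The members called higher in culture followed different courses. Line 4214 had 4.40, 6.51 and 5.34 CPM after 2 hours, 2.44, 5.38 and 4.38 CPM on day 1 and 13.6, 12.9 and 11.7 CPM on day 4, with a log2FC of 1.65 ± 0.21 between the latter (SE, FDR 3.58e-06, edgeR). Its day 4 libraries were thus all above those of 2 hours, as in line 9056, which rose between day 1 and day 4 by a log2FC of 0.88 ± 0.18 (SE, FDR 0.000422, edgeR). Line 15678, by contrast, had 76.1, 41.7 and 72.5 CPM after 2 hours, 26.1, 25.6 and 27.1 CPM on day 4 and 58.8, 51.5 and 51.5 CPM on day 8, with a log2FC of 1.04 ± 0.16 between the latter (SE, FDR 0.000103, edgeR). Lines 16803 and 8918 rose between day 4 and day 8 as well, with a log2FC of 1.36 ± 0.16 (SE, FDR 4.53e-06, edgeR) and of 0.97 ± 0.12 (SE, FDR 7.93e-06, edgeR).

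The widest differences from the 2-hour level were the rise of line 17036 and the falls of lines 14222 and 9211, all on day 1. Line 9211 had 8.61, 5.21 and 6.19 CPM after 2 hours, 0.913, 0.142 and 0.151 CPM on day 1 and 5.26, 4.42 and 5.17 CPM on day 12, but its mean was below the level for a call. In all, 16 members differed by 1 or more from their 2-hour level on day 1, 4 or 8, which were 8 of the 32 members between 1 and 3 and 8 of the 22 at 3 or more. The 196 members near the floor, under 1 in every IVT group, could not differ by 1. Of the 3600 rows with a difference under 0.5 over culture and a level of 3 or more in an IVT group, 662 (18.4%) did so, against 36.4% of the 22 members. These differences share the 2-hour libraries with the choice of the members and were not tested.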

How the data were processed

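RNA of sorted mouse HSCs was sequenced in 45 libraries. The authors deposited 3 tables of raw read counts per gene (WD, CCl4 and IVT), made per the study's methods with STAR on mm10 and with HOMER, counting exons on both strands without normalization. Strands were not separated, so overlapping genes could share reads. All value columns were used. Of 23999 identifiers 23659 matched RefSeq names, but counts did not follow them, and rows were joined by line.

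The members, lists and tests were chosen with earlier results of these data known. The members were found in Python 3.11.15 with pandas 2.3.3 and numpy 2.4.6. The groups from which the rises and the culture difference were taken (WD 0 and 24 weeks, CCl4 0 and 8 weeks, IVT 2 hours and 12 days) were described without a test. Tests compared the other groups, which had entered the choice only through the level of 3 in any of the 13 groups, with the quasi-likelihood test of edgeR 4.0.16 in R 4.3.3 (TMM, filterByExpr, all groups of an experiment in 1 fit), with Benjamini-Hochberg adjustment over all rows tested. Calls required an FDR up to 0.05 and a log2 of the mean CPM above 2. This mean was taken over the libraries of both groups of a comparison, with TMM-scaled library sizes. In counts simulated with 200 changed rows, a log2FC of 1 was recovered for 36.4% of changed rows above the level in WD 16 against 12 weeks. It was recovered for 52.7% in CCl4 4 against 1 weeks and for 95.2% in IVT 4 days against 1 day. Of the rows called in these simulations, 4.65%, 3.62% and 8.65% had not been changed. In IVT 8 days against 4 days 5.85% had not been changed, so that both IVT values were above the FDR limit of 0.05.

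Rows were named if they were among the first 10 members, the 5 on either side of the list's end, the 5 highest in culture, the 3 with the lowest p in each direction of each test, the 3 with the largest difference from 2 hours in culture or the 3 highest and lowest shares at WD 12 weeks and CCl4 1 week. The examples printed in full were picked among the named rows after their values were seen. DESeq2 1.42.0, other scalings, filters and pseudocounts, other limits of the rule, the replicate letter in the fit and each library left out in turn were tried as alternatives.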

Additional observations from a re-analysis of the deposited data

Results flagged for a closer look

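Replicate A at 4 weeks of CCl4 was far above the other 3 libraries of its group in 6 values, by a test on the gap to the nearest library over the range of the group (Dixon's test at its 95% critical value). The mean log2(CPM + 1) of the 250 members was 5.38 in it and 4.39 to 4.52 in the others (gap over range 0.869). The members held 2.13% of its counts and 1.09% to 1.14% of those of the others (0.949). Line 11827 had 402 CPM against 249.8 to 257 CPM (0.952), and line 14364 had 92.4 CPM against 32.3 to 36.9 CPM (0.923). Line 15974 had 318 CPM against 157 to 169.9 CPM (0.92), and line 22480 had 307 CPM against 131 to 158 CPM (0.848). In all, 84 sets of values from groups of 4 libraries were checked, and chance alone marks about 1 in 20. The 6 values are not independent of each other, since all come from the same library and the first 2 contain the other 4. What set this library apart was not tested.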

How the results depend on the processing

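The counts of members called in WD and CCl4 moved by less than 1.5 times under each alternative run, and no named difference changed its direction. Without single libraries, 174 to 210 members were called between 16 and 12 weeks of WD, 156 to 176 between 4 and 1 weeks of CCl4, 12 to 14 between day 4 and day 1 and 9 to 13 between day 8 and day 4. The lowest WD count came without replicate C or D at 16 weeks and the lowest CCl4 count without replicate A at 4 weeks. Of 20 named differences, 17 were called under every alternative, and the exceptions were line 1661 in CCl4 and lines 12713 and 12056 between day 8 and day 4. Counted over the 246 members that reached a level of 3 in a group from which a rise or the culture difference was taken, an alternative chosen after seeing the data, 202, 177, 14 and 12 were called in the 4 tests. With no limit on the mean level, 28 members were called between day 4 and day 1 in place of 14. Of these, 17 were higher and 11 lower, in place of 5 and 9, so that the more frequent direction changed.

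The list itself depended on the rule. It kept 160 of the 250 members with a pseudocount of 0.25, 164 with a culture difference under 0.25 and 18 when a level of 3 or more was required at 2 hours or 12 days, where by construction 0 members were near the floor. The median share at 12 weeks of WD was 0.597 with a pseudocount of 0.25, 0.444 with one of 4 and 0.452 with the level required in culture. At 1 week of CCl4 it was 0.38 with a culture difference under 0.25 and 0.359 with the level required in culture. Leaving out each replicate letter kept 214 to 243 members, with 185 to 203 near the floor and median shares of 0.46 to 0.57 in WD and 0.421 to 0.481 in CCl4.

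The main fits did not pair libraries by replicate letter. The correlation of same-letter deviations ran from −0.398 to 0.259 between 16 and 12 weeks of WD and was at most 0.094 in the other tests. Between day 4 and day 1 it was above the highest other-letter value for each letter (0.042, 0.032 and 0.082 against −0.004, 0.013 and −0.028). In the other tests it was above that value for some letters and below it for others. Such correlations from few libraries cannot exclude pairing. Between 24 and 16 weeks of WD, which were not tested against each other, the same-letter correlation was 0.625, 0.724, 0.659 and 0.332 for A to D, and A and D correlated more with another letter (0.692 and 0.746). With the replicate block, 205, 179, 14 and 12 members were called in the 4 tests, in place of 204, 177, 14 and 12. Depth limits what can be said of culture, where 3 counts came to 0.396 to 0.844 CPM over the IVT libraries.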
